A study of Mus musculus with 5 samples.

Results

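Neutrophils were rare in the scRNA-Seq data of MC38 tumors. They comprised 62 barcodes, 37 in tumor reaction 1 and 25 in tumor reaction 2, of 65356 tumor barcodes and of 191492 barcodes in the 5 reactions of the study. They were chosen on RNA alone. A barcode had at least 200 genes and under 10% mitochondrial unique molecular identifiers (UMIs, 1 per captured transcript), with no upper limit on genes, and UMIs of at least 4 of the 7 genes Csf3r, Cxcr2, S100a8, S100a9, Retnlg, G0s2, and Il1r2. It also had S100a8 and S100a9 at 10 or more per 10000 UMIs in sum, the complement genes C1qa, C1qb, and C1qc under 20 per 10000 in sum, and fewer than 2 UMIs of the monocyte gene Ly6c2. Of 57094 tumor barcodes that passed the filters on genes and mitochondrial UMIs, neutrophils made up 0.110% in reaction 1 (37 of 33762, exact binomial 95% interval 0.0772 to 0.151) and 0.107% in reaction 2 (25 of 23332, 0.0694 to 0.158), which is a mean of 0.108% ± 0.00173 (SD, n = 2). These intervals cover counting error only.

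The study asked how blocking JAK1, a kinase that signals for interferon receptors, with the inhibitor ABT-317 alters responses to checkpoint inhibitors (CPI, anti-CTLA4 + anti–PD-1). MC38 is a mouse colon carcinoma line, and its tumors grew in wild-type male C57BL/6J mice aged 8 to 10 weeks. Mice of all 4 groups had the same tumor and received isotype control antibody or CPI on days 3, 6, and 9 and then, on day 12, either vehicle (DPBS) or ABT-317 at 20 mg/kg, with harvest on day 15. Whether these days count from implantation or from enrollment is given both ways in the sources used here. Live CD45+ and CD45- tumor cells were sorted and mixed in equal parts, so a share of barcodes is not a share of the tumor. Each reaction held the 4 groups together, marked by hashtag antibodies that give the treatment but not the mouse, and the 3 other reactions came from tumor-draining lymph nodes (TDLNs) of mice with TRAMP-C2 prostate tumors.

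Neutrophils are short-lived granulocytes that form in the bone marrow under G-CSF, read by the receptor Csf3r, and leave it for blood and inflamed tissue through CXCR2 and its ligands. They load granule proteins in sequence while they mature, first the primary granule enzymes, then the secondary and tertiary granule proteins, so mature cells hold those proteins but little of the early transcripts. In mice they are told from monocytes and macrophages by the surface protein Ly-6G, and in tumors they are known to make chemokines, interleukin-1, and the checkpoint ligand PD-L1.

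Surface proteins were read in the same barcodes with antibodies that each carry a DNA tag, and the tags of the antibodies that carried the results below are given here. These are synthetic antibody tags with no genome position, and capitals run over the whole tag of 15 bases.
Ly-6G: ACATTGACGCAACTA
CD24: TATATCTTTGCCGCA
CD11b: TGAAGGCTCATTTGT
CD48: AGAACCGCCGTAGTT
Ly-6C: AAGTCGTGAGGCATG

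The promoters of a gene that chose the barcodes, S100a9, and of the chemokine gene Cxcl2, which did not, are given from RefSeq on GRCm38.p6, each 300 bases from 250 before to 50 after the gene's start. Both strands were searched for the letters GGGNNNNNCC, which NF-kB proteins can bind, and TTNNGCAA, which C/EBP proteins can bind, and capitals mark matches. The Cxcl2 promoter (chr5:90903649-90903948, + strand) held 3 matches of the first motif, of which a pair overlap on opposite strands, and 0 of the second. The S100a9 promoter (chr3:90695672-90695971, - strand) held 0 and 1. The promoters of S100a8 and Il1b, searched the same way and not printed, held 0 of both. Of 32851 RefSeq promoters of this length, 50.8% held the first motif and 10.8% the second.
Cxcl2: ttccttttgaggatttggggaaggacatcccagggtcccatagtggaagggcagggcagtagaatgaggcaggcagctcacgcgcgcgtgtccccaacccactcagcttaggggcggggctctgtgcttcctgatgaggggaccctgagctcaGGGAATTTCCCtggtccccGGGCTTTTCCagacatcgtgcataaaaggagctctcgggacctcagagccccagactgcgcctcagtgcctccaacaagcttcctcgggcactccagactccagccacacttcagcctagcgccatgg
S100a9: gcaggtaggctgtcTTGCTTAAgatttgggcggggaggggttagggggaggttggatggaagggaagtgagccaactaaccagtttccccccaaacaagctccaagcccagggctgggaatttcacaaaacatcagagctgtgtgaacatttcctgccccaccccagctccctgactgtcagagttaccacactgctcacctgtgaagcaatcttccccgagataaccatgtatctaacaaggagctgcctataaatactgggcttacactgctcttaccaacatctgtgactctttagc

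The label was checked with the Ly-6G antibody, which the rule did not use. As antibody UMIs per 1000000 antibody UMIs of the barcode (antibody CPM), Ly-6G ran from 5920 over a median of 11634 to 24850 in the 37 neutrophils of reaction 1, and from 8924 over 11306 to 23206 in the 25 of reaction 2. Medians were 4336 and 4475 in T cells (2 or more of Cd3d, Cd3e, Cd3g, and Trac), and 4182 and 4146 in C1q-high macrophages (C1q genes at 20 or more per 10000 with Csf1r or Adgre1). The 99th percentile of T cells, a limit taken after the values were seen, was 6775 and 6968, and 34 of 37 and 25 of 25 neutrophils lay above it, 59 of 62 in all. Among macrophages 103 of 7054 and 59 of 6751 lay above the same limit, so the ranges overlapped while most barcodes of the 2 sets lay on opposite sides of the limit. The label held on this protein. RNA of Ly6g itself was not captured, with 0 UMIs in both reactions, which allows up to 19.9 and 17.1 RNA UMIs per 1000000 (CPM, a limit of 3 counts). The 1 neutrophil with all 7 marker genes was among the 3 below the limit, at 6600. In reaction 1 the limit was passed by 29 of 30 neutrophils under 2500 genes but by 5 of 7 with 2500 or more. In reaction 2 it was passed by 18 of 18 and 7 of 7.

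**Figure D1:**
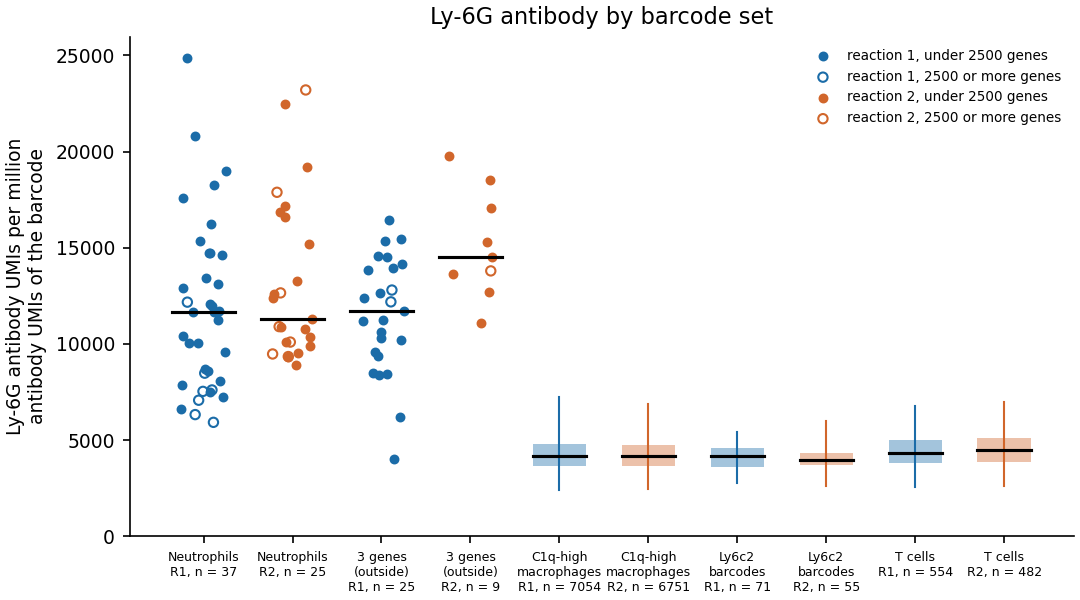
Ly-6G antibody CPM of each barcode (y axis, linear) for neutrophils of the 2 tumor reactions and for barcodes outside the rule, with other classes drawn as boxes from their percentiles. Neutrophil medians sit at 11634 and 11306, against 4336 and 4475 in T cells.

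Many but not all barcodes just outside the rule lay above the same limit for Ly-6G. Where every criterion but the marker count was met, 23 of 25 and 9 of 9 barcodes with 3 marker genes lay above the limit, as did 11 of 14 and 4 of 4 with 2 marker genes. With 1 marker gene 6 of 25 and 2 of 2 did, with medians of 5370 and 17224 antibody CPM. Barcodes that failed on C1q alone lay above it in 15 of 22 and 19 of 23 cases, and those that failed on the S100 genes alone in 12 of 13 and 3 of 4. Of barcodes that failed only on mitochondrial UMIs, 1 of 1 and 10 of 10 did, and the 1 barcode that failed only on Ly6c2, in reaction 1, did not. The lowest S100 sum inside the rule was 13.6 and 11.4 per 10000, and the highest among barcodes that failed on the S100 genes alone was 9.64 and 8.54. The highest C1q sum inside was 18.0 and 18.9, and the lowest among barcodes that failed on C1q alone was 21.3 and 23.4. Of all other passing barcodes 720 of 33725 (2.13%) and 291 of 23307 (1.25%) lay above the limit, against 1.08% and 1.04% of the T cells that set it. The share of 0.108% therefore counts barcodes that met the rule and not all barcodes with Ly-6G.

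Neutrophils were small libraries. Their median was 970 UMIs and 633 genes in reaction 1 and 839 UMIs and 431 genes in reaction 2, against 8799 and 10014 UMIs in all other passing barcodes. The lowest UMI count was 559 and 500 in neutrophils and 546 and 500 in other passing barcodes. Cells with less RNA than that are not among these barcodes, so the neutrophil share does not count them. The exception was a set of 14 gene-rich barcodes, 7 in each reaction, with 2500 or more genes, which held 73.8% and 91.2% of all neutrophil UMIs. All 14 had UMIs of the collagen gene Col3a1 and of Fn1, fibronectin, and 13 had Dcn, decorin, whereas of the 48 smaller neutrophils Col3a1 was in 14, Fn1 in 13, and Dcn in 6. These counts were not brought to equal depth. As CPM of summed UMIs, but not as per-barcode medians, 5 fibroblast genes (Col1a1, Col1a2, Col3a1, Dcn, and Pdgfra) went the other way. In sum they stood at 3080 and 1896 in the gene-rich set and at 18371 and 10669 in the smaller neutrophils. Their per-barcode medians were 28.6 and 27.8 per 10000 UMIs in the gene-rich set and 0 and 5.64 in the smaller neutrophils. The highest values per barcode were 86.2 and 43.3 in the gene-rich set and 1102 and 665 in the smaller neutrophils. Hashtags of several treatments were on 7 of 7 and 4 of 7 gene-rich barcodes, against 4 of 30 and 2 of 18 smaller ones. Median Ly-6G antibody CPM in the gene-rich set was 7530 and 10898. Whether a gene-rich barcode held more than 1 cell was not tested, and because these barcodes dominate sums, RNA levels are given for all neutrophils, and for main genes again for those under 2500 genes. No barcode sequence was shared between the neutrophils of the 2 reactions.

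RNA of the 7 rule genes is a description of the choice. S100a8 and S100a9, the subunits of calprotectin, were in 36 and 37 of 37 neutrophils of reaction 1 and in 25 and 24 of 25 of reaction 2. G0s2, an inhibitor of lipolysis, was in 32 and 22, and Il1r2, the decoy receptor for interleukin-1, in 28 and 18. Csf3r was in 17 and 14, Retnlg, a resistin-like secreted protein, in 17 and 13, and Cxcr2 in 3 and 6. The S100 genes, G0s2, and Il1r2 were the markers most often present, and 22 and 8 barcodes had exactly 4 marker genes.

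Other RNA was compared with all other passing tumor barcodes as a ratio of CPM over summed UMIs, with no test, because the rule used RNA of the same barcodes. Reads start at the 5′ end and are counted once per molecule, so CPM is not scaled by gene length. A gene was called higher where it was at least 2-fold higher in both reactions with at least 3 neutrophil UMIs in each, and lower where it was at least 2-fold lower in both with at least 5 UMIs expected. In all neutrophils 269 of 25638 genes (1.05%) were higher and 46 (0.179%) lower, and in those under 2500 genes 404 (1.58%) and 154 (0.601%). Only neutrophils were restricted there, and other barcodes, macrophages, and T cells kept every depth. Of passing barcodes 54.9% and 58.5% had 2500 or more genes. Neutrophils under 2500 genes held 39628 and 15371 UMIs, so 3 UMIs ask for a higher CPM there. Whether genes that lost the call there (Lcn2, Wfdc21, Ifi47, and Jak2) had too few UMIs for it was not tested. Over 15 lists of neutrophil roles with 159 genes, 34 genes were higher, and 55 in neutrophils under 2500 genes. With a single reaction in place of both the rule is looser: in reaction 1 alone 71 listed genes were higher, with 4.82% of all genes, and in reaction 2 alone 38, with 3.2%. The lists were drawn for what neutrophils are known to express. Single genes are named by their level within a list or by passing this fold.

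Of 16 chemokine and cytokine genes, 6 were higher (Il1b, Il1rn, Cxcl2, Cxcl3, Ccl3, and Ccl6), and under 2500 genes Il1a, Tnf, and Ccl4 joined them. Cxcl2, a ligand of CXCR2 that draws neutrophils, was in 35 of 37 and 23 of 25 neutrophils, with per-barcode levels from 0 over a median of 89.4 to 660 per 10000 UMIs in reaction 1 and from 0 over 71.9 to 1476 in reaction 2. Its summed level was 6259 (95% interval by Poisson counting 5867 to 6672) and 5342 CPM, and 19103 and 47817 CPM under 2500 genes, against 3474 and 3552 CPM in C1q-high macrophages. Il1b, the inflammatory cytokine, was in 37 of 37 and 24 of 25, with per-barcode medians of 42.0 and 56.4 per 10000. In sum Il1b was 1742 and 1193 CPM, and 5400 and 9954 CPM under 2500 genes, against 993 and 1094 CPM in macrophages.

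Genes of this list were also counted in pairs within barcodes. Il1b and Cxcl2 were both present in 35 of 37 and 22 of 25 neutrophils. With Il1b in 37 and 24 barcodes and Cxcl2 in 35 and 23, that overlap follows from the single counts. Ccl3, a chemokine that draws leukocytes, was in 24 and 13, of which 23 and 13 also had Cxcl2. Since Cxcl2 was in nearly all barcodes, this overlap does not show that the genes go together either. Ccl3 and Ccl4, its close relative, were both present in 18 and 10. Ccl4 reached 1570 and 691 CPM in all neutrophils and 5173 and 3318 CPM under 2500 genes, against 4286 and 4806 CPM in macrophages, and 3 barcodes held 62.4% and 65.3% of its UMIs. The interferon-induced chemokine genes Cxcl9 and Cxcl10 stood at 19.9 and 5.71 CPM and at 99.4 and 194 CPM, below the 172 and 160 and the 602 and 634 CPM of macrophages. Under 2500 genes Cxcl10 stayed below, at 252 and 260 CPM. Cxcl9 was at 50.5 and 0 CPM there, in sums of 39628 and 15371 UMIs, too few to place it below macrophages in reaction 2. Over the 11 genes of the list with 5 or more UMIs expected, the median ratio to other barcodes was 2.13 in reaction 1 and 0.762 in reaction 2, against 0.915 and 0.962 over 3843 genes, so the list lay above the genes at large in reaction 1 and below them in reaction 2.

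Free RNA can place UMIs of abundant transcripts in any droplet, so shares of barcodes were also taken after each barcode was thinned to 500 UMIs, with no barcode too shallow in these classes. Thinned, Cxcl2 was in 81.1% and 84.0% of neutrophils, 53.8% and 53.5% of macrophages, and 10.6% and 13.1% of T cells, which should lack it. Il1b was in 73.0% and 72.0% of neutrophils and 6.14% and 4.98% of T cells. Slpi was in 35.1% and 44.0% of neutrophils and 0% and 0.207% of T cells. Apoe, an abundant macrophage transcript, was in 29.7% and 12.0% of neutrophils and 18.2% and 16.4% of T cells, so it lay above the T cell share in reaction 1 and below it in reaction 2. Unthinned, Apoe was in 51.4% and 20.0% of neutrophils and 59.4% and 41.1% of T cells, and Cxcl2 in 94.6% and 92.0% of neutrophils and 42.1% and 33.8% of T cells, at median UMIs of 970 and 839 for neutrophils and 2430 and 1485 for T cells. Hashtags of several treatments were on 50.4% and 29.9% of T cell barcodes, against 41.3% and 23.8% of passing barcodes. Whether UMIs of other cell types in T cell barcodes came from free RNA or from another cell was not tested.

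**Figure D2:**
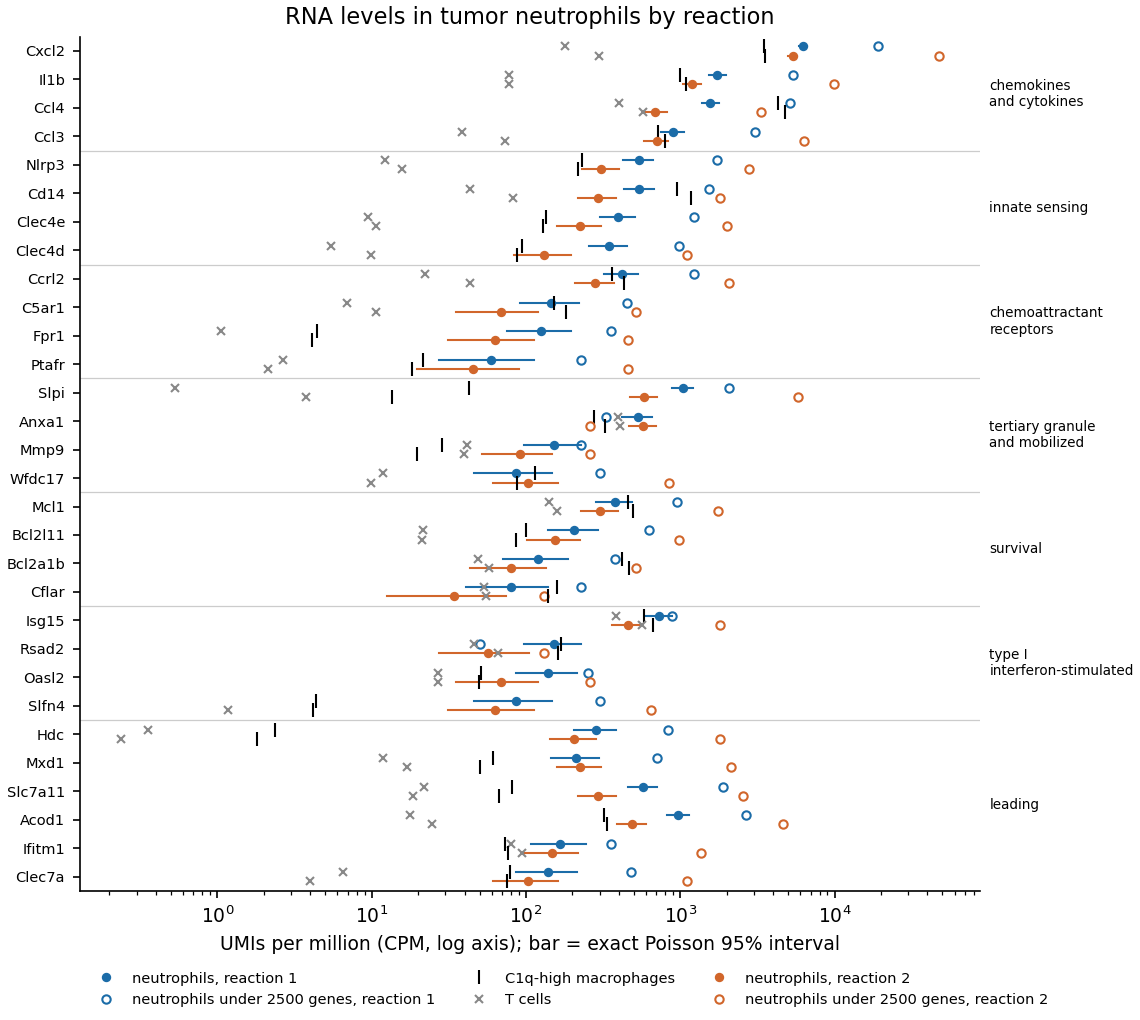
CPM (x axis, log scale) of genes by role in neutrophils of each reaction, with exact Poisson 95% intervals, beside neutrophils under 2500 genes, C1q-high macrophages, and T cells. Cxcl2 lies at 6259 and 5342 in all neutrophils and at 19103 and 47817 in those under 2500 genes.

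Granule genes are given by the granule that holds their proteins. All 5 primary granule genes, Mpo, Elane, Prtn3, Ctsg, and Ms4a3, had 0 UMIs in neutrophils of both reactions. Of the 6 secondary granule genes Lcn2, the iron-sequestering lipocalin, was higher, at 106 and 57.1 CPM in 9 and 6 barcodes, but it was not among the genes higher under 2500 genes, where 0 of the 6 were. Ltf, Camp, Ngp, Cd177, and Chil3 were at 0. In the sums of all neutrophils 0 UMIs allow up to 19.9 and 17.1 CPM. Neutrophils under 2500 genes held 39628 and 15371 UMIs, so the limits for them alone lie higher. Of 7 tertiary granule and mobilized genes, 4 were higher (Mmp9, Slpi, Wfdc21, and Wfdc17), and 3 under 2500 genes, without Wfdc21. Slpi, an inhibitor of neutrophil elastase, was in 26 and 16 barcodes at 1040 and 582 CPM, and 2069 and 5790 CPM under 2500 genes, against 42.9 and 13.5 CPM in macrophages. Slpi was uneven, with 26.1% and 45.1% of its UMIs in 1 barcode. Mmp9, gelatinase B, stood at 152 and 91.3 CPM. Anxa1, annexin A1, was not higher, at 530 and 571 CPM against 385 and 460 CPM in other barcodes.

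Of 8 measured chemoattractant receptor genes, 4 were higher (Ccr1, Ccrl2, Fpr1, and Ptafr). Fpr1, the receptor for bacterial formyl peptides, stood at 126 and 62.8 CPM against 4.40 and 4.12 CPM in macrophages, on 9 and 4 barcodes. Ccrl2, a chemerin-binding receptor that does not signal, was in 20 and 18 barcodes at 417 and 280 CPM. C5ar1, the receptor for complement C5a, was higher only under 2500 genes, at 454 and 520 CPM. Among adhesion genes, Itgal (the integrin chain CD11a) and Icam1 were higher. Icam1 stood at 139 and 51.4 CPM, against 37.5 and 41.9 CPM in macrophages. Of 13 growth factor and cytokine receptor genes, Csf2rb and Tnfrsf1b were higher, joined by Csf2ra and Il4ra under 2500 genes, and Tnfrsf1b, a TNF receptor, was in 16 and 7 barcodes at 172 and 79.9 CPM. The receptor chains Ifngr1 for interferon-γ and Ifnar2 for type I interferon stood at 53.0 and 45.7 CPM and at 106 and 131 CPM, close to other barcodes (43.3 and 48.2, and 85.5 and 98.1).

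Of 10 innate sensing genes, 5 were higher (Trem1, Clec4d, Clec4e, Lilrb4a, and Nlrp3), and Tlr2 and Cd14 joined them under 2500 genes. Nlrp3, the inflammasome sensor, was in 25 and 17 barcodes at 537 and 308 CPM, and 1741 and 2797 CPM under 2500 genes, against 232 and 219 CPM in macrophages. Clec4e and Clec4d, lectin receptors for microbial glycolipids, stood at 397 and 223 CPM and at 344 and 131 CPM. Cd14, the coreceptor for lipopolysaccharide, stood at 543 and 291 CPM in all neutrophils, below the 957 and 1176 CPM of macrophages, and at 1539 and 1822 CPM under 2500 genes, above them. Of the 5 Fc receptor genes none was higher in all neutrophils, where their shared signaling chain Fcer1g stood at 755 and 542 CPM, and Fcer1g was higher under 2500 genes, at 2322 and 3578 CPM. Among genes of the NADPH oxidase, the enzyme of the respiratory burst, Ncf1 was higher, at 59.6 and 79.9 CPM.

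Among 16 measured genes that describe neutrophils of tumors, Cd274, which encodes PD-L1, and Arg2, mitochondrial arginase, were higher. Cd274 was in 14 and 10 barcodes at 166 and 160 CPM, and 429 and 1496 CPM under 2500 genes, against 153 and 135 CPM in macrophages. Thinned to 500 UMIs, Cd274 was in 18.9% and 28.0% of neutrophils and 2.53% and 4.56% of T cells. Arg2 stood at 92.7 and 51.4 CPM, against 7.12 and 6.05 CPM in macrophages. Siglecf, a marker of a tumor neutrophil state and of eosinophils, had 0 UMIs. The levels of Jun, Ctsb, Spp1, and Bnip3 were the highest of this list, from 234 to 1330 CPM, and none of these 4 was higher in all neutrophils. Under 2500 genes 5 of the 16 were higher, Cd274 and Arg2 with Ptgs2, Hilpda, and Spp1. The median ratio over 11 genes of this list was 2.11 and 1.02.

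Of 17 type I interferon-stimulated genes, Isg20 and Slfn4 were higher, and under 2500 genes Isg15, Oasl2, and Rtp4 too. Of 21 interferon-γ–inducible genes Ifi47, a GTPase, was higher, at 119 and 126 CPM against 51.4 and 61.2 CPM, whereas under 2500 genes Ifi47 was not and Irf1 and Gbp2 were among those higher. Isg15, a ubiquitin-like modifier, was in 19 and 18 barcodes at 729 and 457 CPM, and 883 and 1822 CPM under 2500 genes, against 399 and 447 CPM in other barcodes. The class I genes H2-K1 and B2m stood at 1311 and 1204 CPM and at 2875 and 2386 CPM, against 1155 and 1262 CPM and 2434 and 2469 CPM. The median ratio over 14 interferon-γ–inducible genes was 1.16 and 0.937. Of 12 JAK-STAT genes, Jak2 was higher, at 66.2 and 40.0 CPM, whereas Jak1, which encodes the target of ABT-317, stood at 152 and 51.4 CPM against 84.2 and 79.6 CPM and was higher under 2500 genes, where Jak2 no longer was. Of 8 survival genes Bcl2l11, which encodes the death-promoting protein BIM, was higher, at 205 and 154 CPM, and Mcl1, the survival factor neutrophils depend on, was higher under 2500 genes, at 959 and 1757 CPM, as were Bcl2a1b and Fas.

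Outside the lists, genes at 100 CPM or more were ranked by their ratio to other barcodes, taking the lower of the 2 reactions, and the 15 leading genes began with Hdc, the enzyme that makes histamine. Hdc was in 22 of 37 and 22 of 25 neutrophils at 285 and 205 CPM, and 833 and 1822 CPM under 2500 genes, against 2.35 and 1.82 CPM in macrophages, and its lower ratio to other barcodes was 291. Mxd1, a MYC antagonist, Slc7a11, the cystine transporter, and Acod1, which makes itaconate, followed, with lower ratios of 16.4, 10.2, and 7.39. Acod1 was in 34 and 20 barcodes at 967 and 485 CPM, and 2675 and 4619 CPM under 2500 genes. The others were Ifitm1, Clec7a, Thbs1, Srgn, Rnf149, Antxr2, Pik3ap1, Gadd45b, Gm20186, Msrb1, and Lst1, with lower ratios from 3.38 to 6.96. Srgn, the proteoglycan that packs granule proteins, was in 36 of 37 and 25 of 25 neutrophils.

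**Figure D3:**
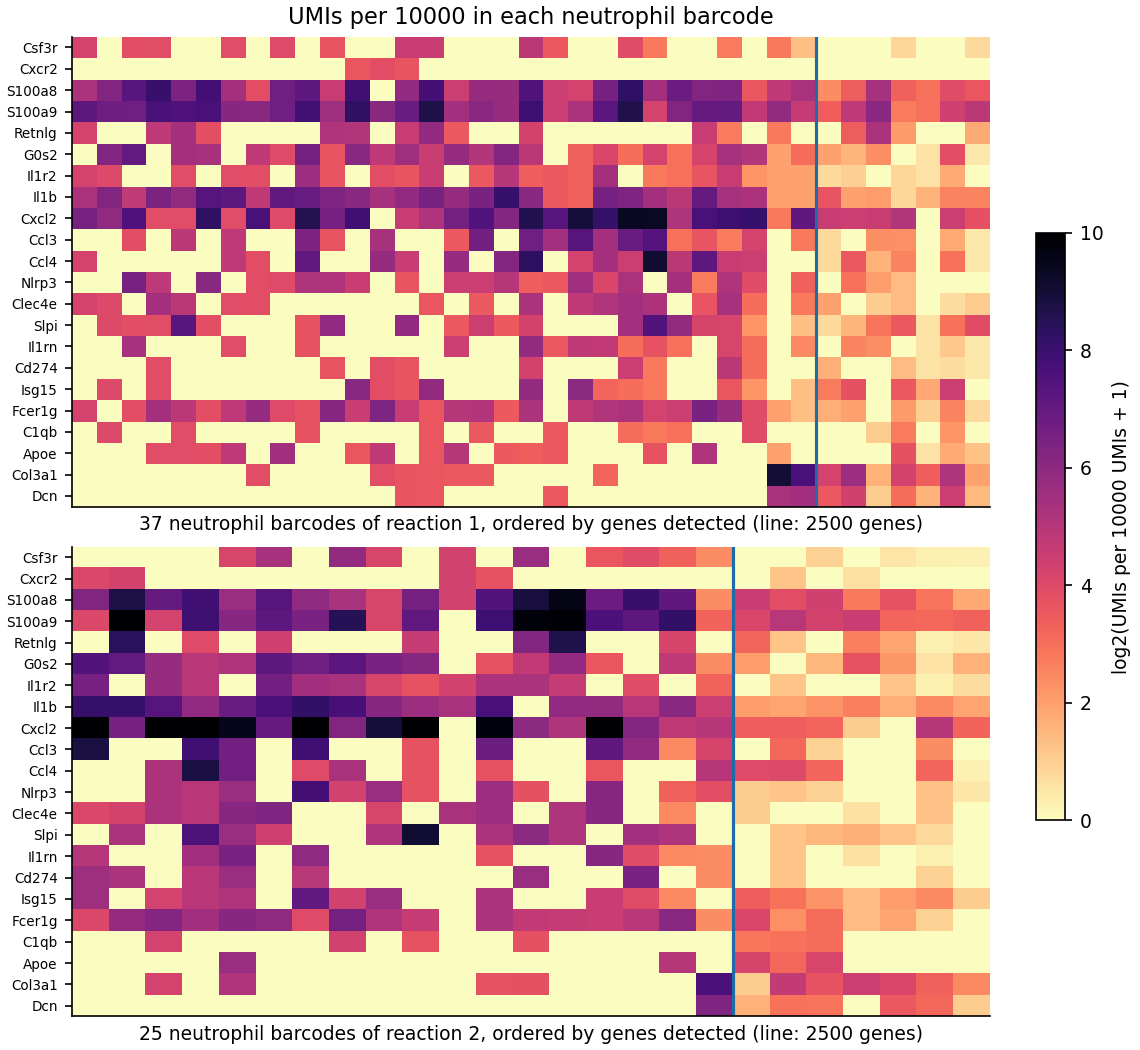
Log2 of UMIs per 10000 plus 1 for single genes (rows) in each of the 37 and 25 neutrophil barcodes (columns), ordered by genes detected with a line at 2500 genes. Cxcl2 and Il1b are seen in nearly all columns, whereas Col3a1 and Dcn are seen in all and 13 of the 14 gene-rich columns and in 14 and 6 of the other 48.

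Markers of other cell types were counted in the same barcodes. Of 13 lists, 6 (NK cell, B cell, tumor epithelial, eosinophil, mast cell or basophil, and erythroid) had 0 UMIs in both reactions. The T cell list had 0 and 1 UMI, the dendritic cell list 4 and 0, the endothelial list 0 and 2, and the platelet list 3 and 6. The 8 macrophage genes were in 31 of 37 and 13 of 25 neutrophils, with medians of 13.3 and 0.235 per 10000 and highest values of 52.7 and 67.5, against medians of 8.23 and 6.10 in T cells. Since C1q genes were capped by the rule, their low level is not a result. The 6 monocyte genes were in 22 and 11 neutrophils, with medians of 8.31 and 0 per 10000 against 9.27 and 7.42 in T cells. The 5 fibroblast genes were in 21 and 16 neutrophils, with medians of 4.86 and 11.8 and highest values of 1102 and 665 per 10000, against medians of 7.52 and 0.906 and highest values of 875 and 1357 in T cells. Col1a1, Col1a2, and Col3a1 were among the genes higher under 2500 genes, and 1 barcode held 45.1% and 63.6% of Col1a1 UMIs. The part of these other RNAs in the levels above was not tested.

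Surface antibodies were compared with 2 other myeloid classes over summed UMIs of 122 antibodies per class and reaction, in 1 edgeR quasi-likelihood fit of 6 sums with Benjamini-Hochberg adjustment over the 122. The p-values measure the spread between 2 reactions, each a pool of mice. C1q-high macrophages held 7054 and 6751 barcodes. The other class, with C1q under 20 per 10000, 2 or more Ly6c2 UMIs, and Csf1r or Ccr2, held 71 and 55, and 57.7% and 63.6% of these also had a T cell UMI. Its monocyte label therefore did not hold for all, and it is called Ly6c2 barcodes here and in the figures. Against macrophages 4 antibodies (3.28%) were higher and 14 (11.5%) lower on neutrophils, and against Ly6c2 barcodes 7 (5.74%) were higher and 17 (13.9%) lower. Of the 18 calls against macrophages, 10 were left without the neutrophil sum of either reaction, and of the 24 against Ly6c2 barcodes 13 were left without that of reaction 2. With only barcodes of 1 hashtag in every class, 6 and 9 antibodies passed.

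CD24, a small glycosylated surface protein of granulocytes and lymphocyte precursors, had the largest called difference in the higher direction. Its antibody CPM was 5693 and 6224 on neutrophils in reactions 1 and 2, 1325 and 1364 on macrophages, 1398 and 1445 on Ly6c2 barcodes, and 1324 and 1601 on T cells. The neutrophil sums lay far above the rest in both reactions. The log2 difference by edgeR was 2.15 (SE 0.0542, adjusted p = 5.18e-06) against macrophages and 2.06 (SE 0.0576, adjusted p = 7.00e-06) against Ly6c2 barcodes. Ly-6G was 11504 and 13112 antibody CPM on neutrophils, 4187 and 4167 on macrophages, and 4064 and 4074 on Ly6c2 barcodes. Its log2 difference was 1.56 (SE 0.0634, edgeR adjusted p = 3.72e-05) and 1.59 (SE 0.0651, adjusted p = 1.67e-05). Both antibodies passed in all 12 alternatives against macrophages and all 13 against Ly6c2 barcodes. Of these, 6 leave out 1 sum, so that a class with 1 sum left is assumed to vary like the other classes.

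CD11b, the integrin chain of myeloid cells, was higher on neutrophils against both classes. It was 22410 and 22569 antibody CPM on neutrophils, 19189 and 20054 on macrophages, 10100 and 10174 on Ly6c2 barcodes, and 5698 and 5511 on T cells. Its log2 difference was 1.14 (SE 0.0345, edgeR adjusted p = 7.00e-06) against Ly6c2 barcodes and 0.59 (adjusted p = 0.0018) when those with a T cell UMI were left out, whereas against macrophages it was 0.20 (SE 0.0337, adjusted p = 0.0154) and lost the call in 5 of 12 alternatives. CD55, which shields cells from complement, was higher against both, with a log2 difference of 0.47 each time (edgeR adjusted p = 0.0163 and 0.0190), and lost the call in 5 of 12 and 7 of 13 alternatives. CD371, CD9, and CD88, the C5a receptor, were higher against Ly6c2 barcodes by 0.36, 0.27, and 0.18 on the log2 scale, and none of the 3 passed without barcodes that had a T cell UMI.

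Of the antibodies lower on neutrophils, CD48, a ligand of 2B4 on most leukocytes, was 3399 and 3651 antibody CPM against 6575 and 6767 on macrophages and 6183 and 6746 on Ly6c2 barcodes. Its log2 difference was -0.92 (SE 0.0520, edgeR adjusted p = 0.000153) and -0.88 (SE 0.0528, adjusted p = 9.14e-05). CD48 and CD49f, an integrin chain, passed against macrophages in all 12 alternatives, with a log2 difference of -0.48 for CD49f. CD54 (ICAM-1), Ly-6A/E, CD90.2, CD73, CD29, CD11c, and CD44 were also lower against macrophages, by -1.03, -0.63, -0.55, -0.53, -0.51, -0.48, and -0.41. CD54 was 1139 and 1202 antibody CPM on neutrophils and 1365 and 1363 on T cells. Of the 12 alternatives, the call was lost in 5 for CD54 and CD90.2, 4 for CD29, 3 for CD11c, 2 for CD44, and 1 for CD73 and Ly-6A/E. The difference of CD90.2 turned to 0.0535 with only barcodes of 1 hashtag. F4/80 differed by -0.35, but its gene Adgre1 helped to define macrophages.

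Against Ly6c2 barcodes the lower antibodies were led by T cell proteins. CD90.2 differed by -2.75, CD8b by -1.93, CD2 by -1.54, and CD5 by -1.50, and CD90.2 on Ly6c2 barcodes was 7348 and 8692 antibody CPM against 9109 and 8558 on T cells. Without Ly6c2 barcodes that had a T cell UMI, 7 antibodies passed instead of 24, namely CD24, Ly-6G, and CD11b higher and CD48, CD11c, CD301b, and isotype control RTK4530 lower. CD90.2 was then at -0.33 (edgeR adjusted p = 0.251). Ly-6C, whose gene helped to define the class, was 21469 and 20251 antibody CPM on neutrophils, 52885 and 29495 on Ly6c2 barcodes, and 19168 and 18502 on T cells. Its difference did not pass (log2 -0.99, edgeR adjusted p = 0.0554). Per-barcode medians of Ly-6C lay closer, at 19764 and 19841 on neutrophils and 24085 and 25147 on Ly6c2 barcodes. An isotype control, RTK4530, which has no intended target, passed in both comparisons with log2 differences of -0.31 and -0.43, a size that several of the called antibodies did not exceed. On neutrophils the 9 isotype controls ran from 860 to 3330 antibody CPM and from 0.760 to 1.07 of their T cell level.

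Antibodies to other proteins of neutrophils did not pass. PD-L1 (CD274) was 2719 and 2486 antibody CPM on neutrophils and 2595 and 2614 on macrophages, a log2 difference of 0.0025 (SE 0.0555, edgeR adjusted p = 0.974), with the neutrophil levels inside the range of the isotype controls. CXCR2 (CD182) was 12385 and 13167 against 12313 and 12715. Siglec-F (CD170) was 2228 and 2367 against 2101 and 2142. Whether these antibodies bind at this staining was not tested.

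**Figure D4:**
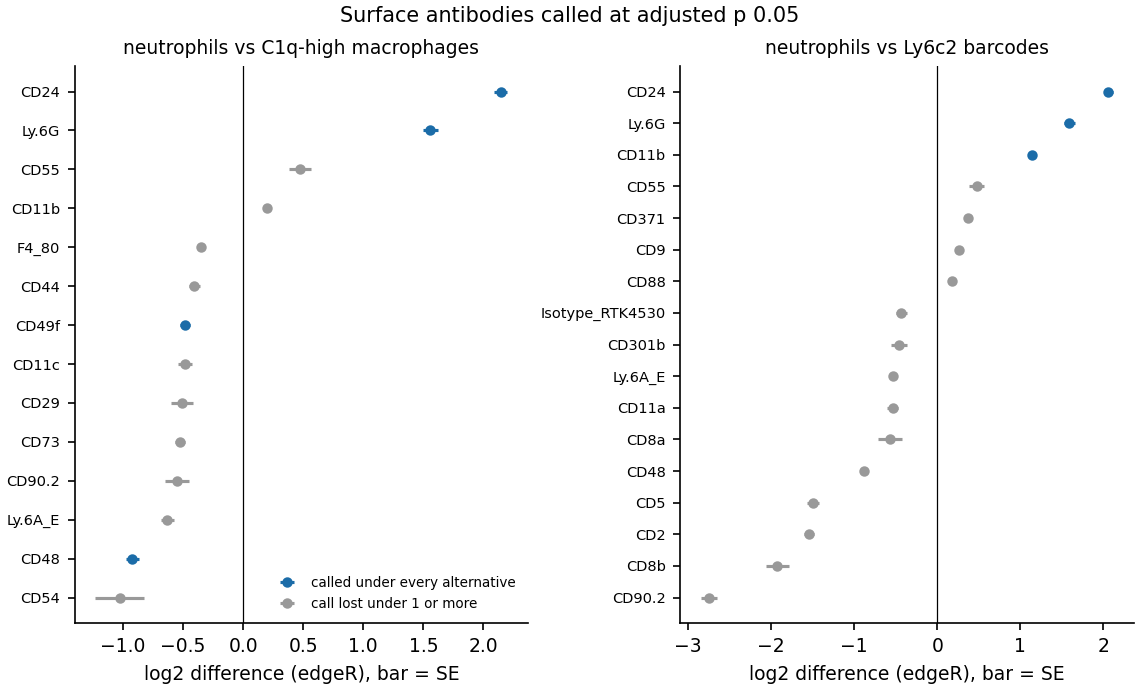
Log2 differences by edgeR (x axis, bars are SE) of surface antibodies called on neutrophils against C1q-high macrophages and against Ly6c2 barcodes. CD24 and Ly-6G stand highest in both panels, at 2.15 and 1.56 and at 2.06 and 1.59.

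Treatment could be read for the 32 neutrophils that carried exactly 1 hashtag. The share among barcodes of the same treatment was 0.115% (12 of 10458) and 0.0966% (9 of 9315) with isotype, 0.265% (6 of 2262) and 0.0708% (1 of 1413) with CPI, and 0.0473% (1 of 2112) and 0.145% (3 of 2072) with CPI + ABT-317. With isotype + ABT-317 it was 0 of 2870 and 0 of 2175, with exact binomial upper limits of 0.128% and 0.169%. CPI spanned the widest range and both ABT-317 groups rested on 0 to 3 barcodes a reaction. The difference was 0.0623 percentage points for CPI against isotype (two-sided exact permutation p = 1), -0.0719 for CPI + ABT-317 against CPI (exact p = 0.667), -0.106 for isotype + ABT-317 against isotype (exact p = 0.333), and 0.0961 for CPI + ABT-317 against isotype + ABT-317 (exact p = 0.333). With 2 reactions a group the smallest p is 0.333, so none of the 4 comparisons could pass. The direction of CPI against isotype and of CPI + ABT-317 against CPI turned when reaction 1 was left out, to -0.0258 and 0.0740. The difference of CPI + ABT-317 against isotype + ABT-317 was 0.145 without reaction 1 and 0.0473 without reaction 2. The absence in isotype + ABT-317 depended on how hashtags were read: with the leading hashtag it was 2 of 4444 and 0 of 1834.

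The depth of barcodes differed between the treatment sets as hashtags assigned them. Hashtags were called on counts not scaled for depth, and the sets changed with the rule. By the leading hashtag CPI held 1050 and 625 barcodes, in place of 2262 and 1413. CPI + ABT-317 then held 3851 and 4894, in place of 2112 and 2072. Whether the differences in depth came from treatment or from the hashtag call was not tested. Barcodes under 2500 genes made up 54.4% and 49.7% with isotype and 92.4% and 88.9% with CPI, but 23.3% and 22.2% with CPI + ABT-317 and 23.1% and 15.0% with isotype + ABT-317. Among barcodes under 2500 genes, the difference in neutrophil share for CPI + ABT-317 against CPI turned from -0.0719 to 0.244 percentage points (exact permutation p = 0.667). The differences for isotype + ABT-317 against isotype and for CPI + ABT-317 against isotype + ABT-317 were -0.170 and 0.428 there. Both rest on isotype + ABT-317 counts of 0 of 663 in reaction 1 and 0 of 326 in reaction 2. The exact binomial upper limits of these shares, 0.555% and 1.13%, exceed the size of both differences. Shares were 0.203% (1 of 493) and 0.652% (3 of 460) with CPI + ABT-317 and 0.287% (6 of 2090) and 0.0796% (1 of 1256) with CPI.

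**Figure D5:**
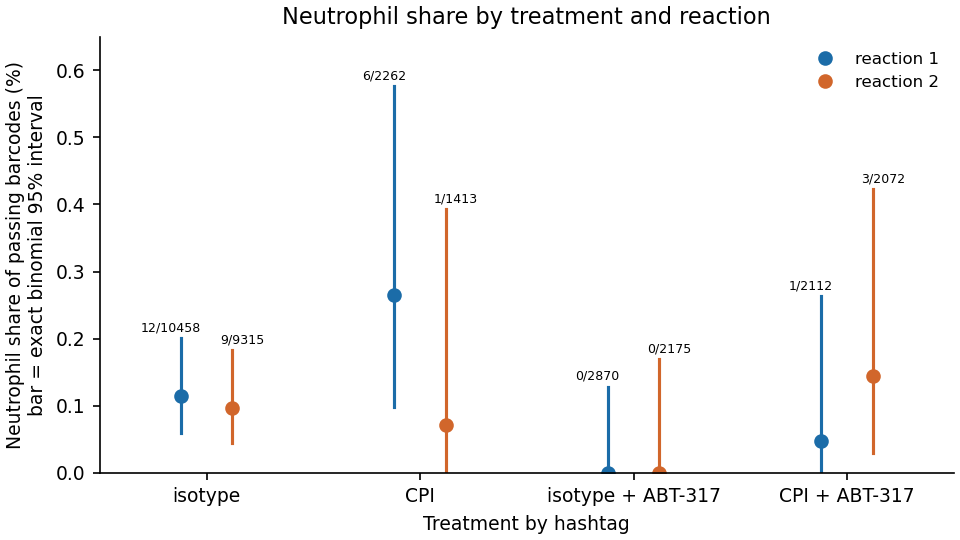
Neutrophil share of passing barcodes with exactly 1 hashtag (y axis, percent) by treatment and reaction, with exact binomial 95% intervals. The 2 isotype values sit at 0.115% and 0.0966%, and both values of isotype + ABT-317 at 0.

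Only 1 of the 8 sums by treatment and reaction held 10 or more neutrophils, so gene expression was not tested between treatments. Cxcl2 was 15818 CPM in isotype reaction 1 (12 barcodes), 2045 in isotype reaction 2 (9), 18523 in CPI reaction 1 (6), 133431 in CPI reaction 2 (1), 48431 in CPI + ABT-317 reaction 1 (1), and 103162 in CPI + ABT-317 reaction 2 (3). Il1b in the same order was 8212, 875, 3225, 29326, 897, and 13479 CPM. The 9 isotype neutrophils of reaction 2 held 94873 UMIs against 11569 for the 12 of reaction 1. Of these 9, 3 had 2500 or more genes and 6 had fewer, and no other sum by treatment and reaction held a gene-rich barcode. Levels by treatment are not given for neutrophils under 2500 genes alone. The 2 isotype values of Cxcl2 lay further apart than those of isotype and CPI in reaction 1. Cxcl2 UMIs were found in 8 of 9 neutrophils of isotype reaction 2 and in every other neutrophil with 1 hashtag.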

How the data were processed

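Counts were used as the authors deposited them: Cell Ranger matrices of UMI counts per gene and per antibody, with no normalization, for 2 MC38 tumor reactions of the 10x 5′ assay. The submitters' processing notes name GRCm38 and Cell Ranger 3.1.0, the tumor file header names 8.0.1, and the methods name other versions; no gene coordinates of the files were used. The 2 tumor reactions held 435031691 and 377184807 gene UMIs and 304490137 and 226996957 antibody UMIs. The members and lists were chosen with earlier results of these data known, and the limit on Ly-6G, the check of T cell UMIs, and the split at 2500 genes per barcode for levels were added after values were seen.

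Barcodes were filtered and chosen by the rule stated with the results. Per treatment, a barcode counted if exactly 1 hashtag was present by a mixture of 2 normal components per hashtag (posterior over 0.5) on log counts. No doublet caller was run. Hashtags mark only multiplets between treatments. RNA levels were summed UMIs scaled to CPM, with exact Poisson 95% intervals. Genes named were the rule genes, up to 4 per list by mean CPM, those past the fold, and the 15 leading genes. Antibodies named in the comparisons were up to 10 per direction by size of called change, besides PD-L1, CXCR2, Siglec-F, and Ly-6C, chosen for the proteins they read. Some listed genes and antibodies are not reported here. Antibody sums were tested with edgeR 4.0.16 (TMM, quasi-likelihood, R 4.3.3) at adjusted p 0.05, with DESeq2 1.42.0 as an alternative. Sums of 122 antibodies were simulated from a profile shared by all classes, with the same fixed dispersion for every antibody. On these edgeR called 8 of 10 changed 1.5-fold and 10 of 10 changed 2-fold against macrophages with 0 false calls. The real classes were not bound to a shared profile or dispersion, so this does not measure false calls in the data. Treatment fits of gene counts were not run, since sums under 10 barcodes were left out beforehand. Thinning used 500 UMIs and a fixed seed. Python 3.11.15, numpy 2.4.6, scipy 1.17.1, pandas 2.3.3, scikit-learn 1.9.0, and matplotlib 3.10.9 were used. Promoters were read from RefSeq GRCm38.p6 by gene symbol.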

Additional observations from a re-analysis of the deposited data

Results flagged for a closer look

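Signal appeared in data outside the comparisons above. In TDLN reactions 1 and 2, from mice with TRAMP-C2 tumors and not sorted, 14 of 62571 barcodes (0.0224%, exact binomial 95% interval 0.0122 to 0.0375) and 10 of 56509 (0.0177%, 0.00849 to 0.0325) met the same RNA rule. In TDLN reaction 3, 0 of 7050 did, which allows up to 0.0523% by the same interval. The median of the barcodes that met it was 2355 and 2367 UMIs in reactions 1 and 2. Antibody counts of the TDLN reactions hold 0, so Ly-6G could not be read there.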

How the results depend on the processing

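The neutrophil share of 0.108% moved with each limit that was varied: 0.192% under 2500 genes, 0.0586% with 5 marker genes, 0.0751% with S100 genes at 50 per 10000, 0.104% under 5% mitochondrial UMIs, 0.0971% with 1 hashtag, and, added later, 0.115% with no mitochondrial limit and 0.165% with 3 marker genes. Each reaction alone gave 0.107% to 0.110%. For treatment shares, CPI against isotype (0.0623 percentage points) turned to -0.0328 with 5 marker genes and ranged from -0.0258 to 0.151 with 1 reaction left out. It fell to 0.0132 under 2500 genes and to 0.00592 with the leading hashtag. CPI + ABT-317 against CPI (-0.0719) turned to 0.244 under 2500 genes, 0.0282 with 5 marker genes, and 0.00778 with the leading hashtag. Its range with 1 reaction left out was -0.218 to 0.0740. The other 2 comparisons were -0.170 and 0.428 under 2500 genes. Both contain isotype + ABT-317, which was 0 in both reactions in every setting but the leading hashtag, so their direction could not turn there. With the leading hashtag they were -0.0668 and 0.0805. Gene expression fits between treatments and their alternatives were not run, since sums were too few.

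Against macrophages (18 antibodies called), 6 passed with 1 hashtag, and 10 to 19 passed with 1 sum left out (10 without neutrophils of either reaction). Against Ly6c2 barcodes (24 called), 9 passed with 1 hashtag (8 of them among the 24), 7 without T cell UMIs, and 13 to 21 with 1 sum left out (13 without neutrophils of reaction 2). CD90.2 against macrophages turned from -0.55 to 0.0535 with 1 hashtag. Listed genes higher numbered 55 under 2500 genes in place of 34, and 38 to 71 with 1 reaction left out (71 without reaction 2). Of single antibodies under alternatives, 318 results kept direction and call, and 70 kept direction only. DESeq2 and other normalization or filtering kept both counts within 1.5 times. Under 2500 genes 16 antibodies passed against macrophages (12 of them among the 18) and 19 against Ly6c2 barcodes (17 among the 24). CD11b, CD54, CD44, and CD90.2 were among those that lost the call against macrophages there. A fit with the reaction as replicate block called 17 (17 shared) and 25 (23 shared). Deviations of classes from the same reaction correlated at 0.106, -0.0835, and 0.298 over 122 antibodies, so the reactions were not treated as pairs. In sums of 37 and 25 barcodes, 0 UMIs allow up to 19.9 and 17.1 CPM.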
